A study of Mus musculus with 18 samples.

Results

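The genes described here encode the lysosomal proton pump, the Ragulator complex and the ion channels and transporters of the lysosomal membrane. They were chosen by symbol from the macrophage expression table and number 33 of the 43309 gene IDs in it: 8 subunits of the V1 sector of the V-ATPase, 8 of its V0 sector, 2 accessory proteins, 5 Ragulator subunits and 10 channels and transporters. All 33 passed the filter on low values (a normalized count of 1 or more in 3 or more libraries) and were tested, and all 33 also reached 5 CPM (reads of the gene scaled to library size) in 3 or more. Mcoln3 reached 5 CPM in the PGRN KO M2 libraries alone. Expression was measured by RNA sequencing of bone marrow-derived macrophages from C57BL/6 mice, grown for 7 days in 10% serum with 10 ng/ml M-CSF and then stimulated for 18 h. M1 cells received 100 ng/ml LPS with 20 ng/ml IFNγ, and M2 cells received 20 ng/ml IL-4. The 6 groups of 3 libraries each are 14-3-3e KO (a myeloid knockout of 14-3-3e, gene Ywhae), PGRN KO (a knockout of progranulin, gene Grn) and wild-type (WT) cells, each as M1 and as M2. The promoter that drives the myeloid deletion, the design of either knockout allele and whether the 3 libraries of a group came from separate mice or cultures are not given in the sources used here, so the p-values describe no more than the spread among these libraries.

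The V-ATPase is a rotary pump. Its cytosolic V1 sector hydrolyses ATP, and its membrane-embedded V0 sector turns that rotation into proton transport, which acidifies lysosomes and, in osteoclasts, the bone surface. Ragulator anchors the Rag GTPases on the lysosome, where together with the V-ATPase and the arginine-sensing transporter SLC38A9 they recruit the growth-controlling kinase complex mTORC1 when amino acids are plentiful. Cation channels of the TRPML and TPC families, the chloride-proton exchanger ClC-7, the potassium-selective channel TMEM175 and the polyamine exporter ATP13A2 set the other ion gradients of the organelle. Progranulin, the protein lost in PGRN KO cells, is itself delivered to lysosomes.

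Levels are normalized counts, differences are on the scale of log2(normalized count + 1) with their standard error (n = 3 libraries per group), and a gene was called when the Benjamini-Hochberg adjusted p of limma's moderated test, over 21336 genes, was under 0.05. Library depth was 5.16 M to 105 M reads. In WT M2 replicate 3 the share of ribosomal RNA-like reads was 5.50% and in WT M1 replicate 2 it was 0.733%, while no other library exceeded 0.0260%. Ywhae was lower in 14-3-3e KO than in WT libraries (log2 differences of -0.72 ± 0.08 in M1 and -0.85 ± 0.08 in M2, adjusted p = 3.02e-05 and 7.76e-06), with 5191 to 6214 normalized counts in 14-3-3e KO M1 against 9021 to 9859 in WT M1. Grn differed from WT by -8.24 ± 0.22 in PGRN KO M1 (adjusted p = 2.47e-12) and by -10.14 ± 0.22 in PGRN KO M2 (adjusted p = 2.16e-13). Of 12 markers of the labelled cell type, 11 macrophage genes (Csf1r, Cd68, Spi1 and others) had reads in every group. The remaining marker, Adgre1, was not found under that symbol. Markers of stromal cells were also abundant and moved with genotype. Summed over 12 stromal markers (Col1a1, Col3a1, Sparc and others, with Fn1 left out), the level was 31196 to 38249 CPM in 14-3-3e KO M1, 13294 to 15409 CPM in PGRN KO M1 and 17165 to 29546 CPM in WT M1, and 28623 to 36570 CPM, 12495 to 16354 CPM and 18344 to 28829 CPM in the M2 libraries of the same genotypes. These markers did not move evenly in 14-3-3e KO. Mean Lum was 2.10 CPM in 14-3-3e KO M1 against 3.65 CPM in WT M1, and 1.83 against 3.68 CPM in M2. In M2 mean Dcn was 14.1 CPM in 14-3-3e KO against 23.4 CPM in WT, and Thy1 was lower in both polarizations. Cxcl12 was nearly level (3120 against 3087 CPM in M1, 1597 against 1571 CPM in M2), and the other means were higher. In these bulk samples, fewer cells of a type and less RNA per cell cannot be told apart.

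**Figure D1:**
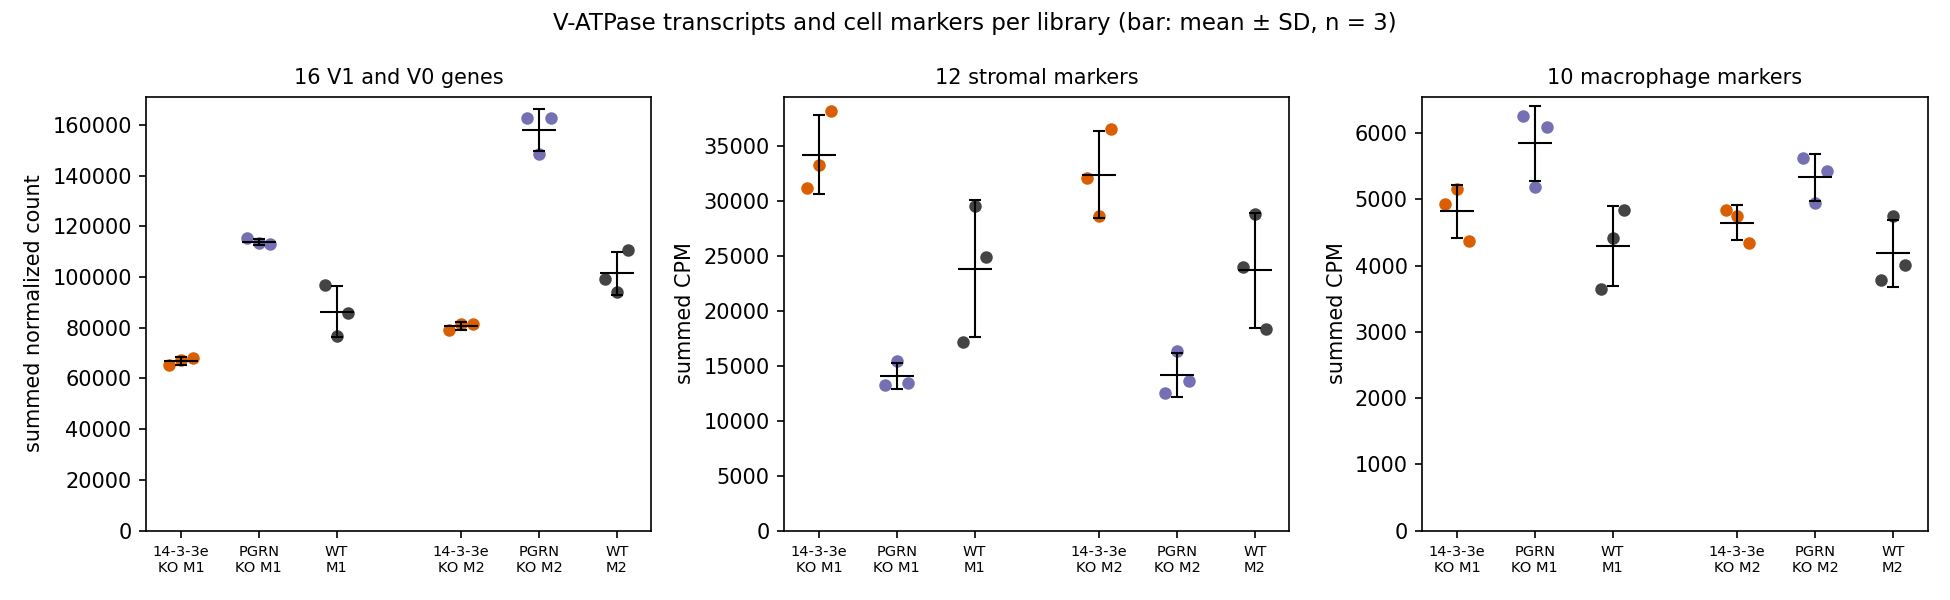
Summed normalized counts of the 16 V1 and V0 genes (left), summed CPM of 12 stromal markers (middle) and of 10 macrophage markers without Lyz2 (right), with 1 point per library and bars for mean ± SD (n = 3). V1 and V0 transcripts were highest in PGRN KO and lowest in 14-3-3e KO in each polarization, and the stromal sum ran in the opposite order.

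Every part of the pump was transcribed at substantial levels in all 6 groups. The 33 genes together took 0.473 to 0.493% of the reads in 14-3-3e KO M1, 0.724 to 0.748% in PGRN KO M1 and 0.522 to 0.593% in WT M1. In M2 they took 0.585 to 0.611% in 14-3-3e KO, 0.953 to 0.985% in PGRN KO and 0.641 to 0.694% in WT. Per kb of exon, the proteolipid ring gene Atp6v0c stood highest in 5 of the 6 groups, at 5063 ± 227 normalized counts per kb in 14-3-3e KO M1, 8700 ± 318 in PGRN KO M1 and 6957 ± 1009 in WT M1 (SD). In PGRN KO M2 the rotor coupling gene Atp6v0d2 stood above it, with 7139 ± 376 per kb against 6712 ± 156 for Atp6v0c. The exon length used is the union over all annotated transcripts of a gene (3384 bases for Atp6v0c, 2716 for Atp6v0d2), and the order of genes depends on it. In normalized counts Atp6v0c stood above Atp6v0d2 in PGRN KO M2 (22714 against 19389). The cation channel gene Mcoln3 and the transporter gene Slc38a9 were the lowest pair in every group. In M1, Mcoln3 stood at 3.28 ± 0.856 normalized counts per kb in 14-3-3e KO, 27.5 ± 4.37 in PGRN KO and 2.46 ± 0.255 in WT, and Slc38a9 at 14.9 ± 0.490, 29.6 ± 0.876 and 17.2 ± 1.69 in the same order. In PGRN KO M2 the order of the pair turned, with 62.8 ± 9.35 per kb for Mcoln3 and 34.3 ± 2.25 for Slc38a9. In normalized counts Slc38a9 stayed above Mcoln3 there (573 against 218).

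**Figure D2:**
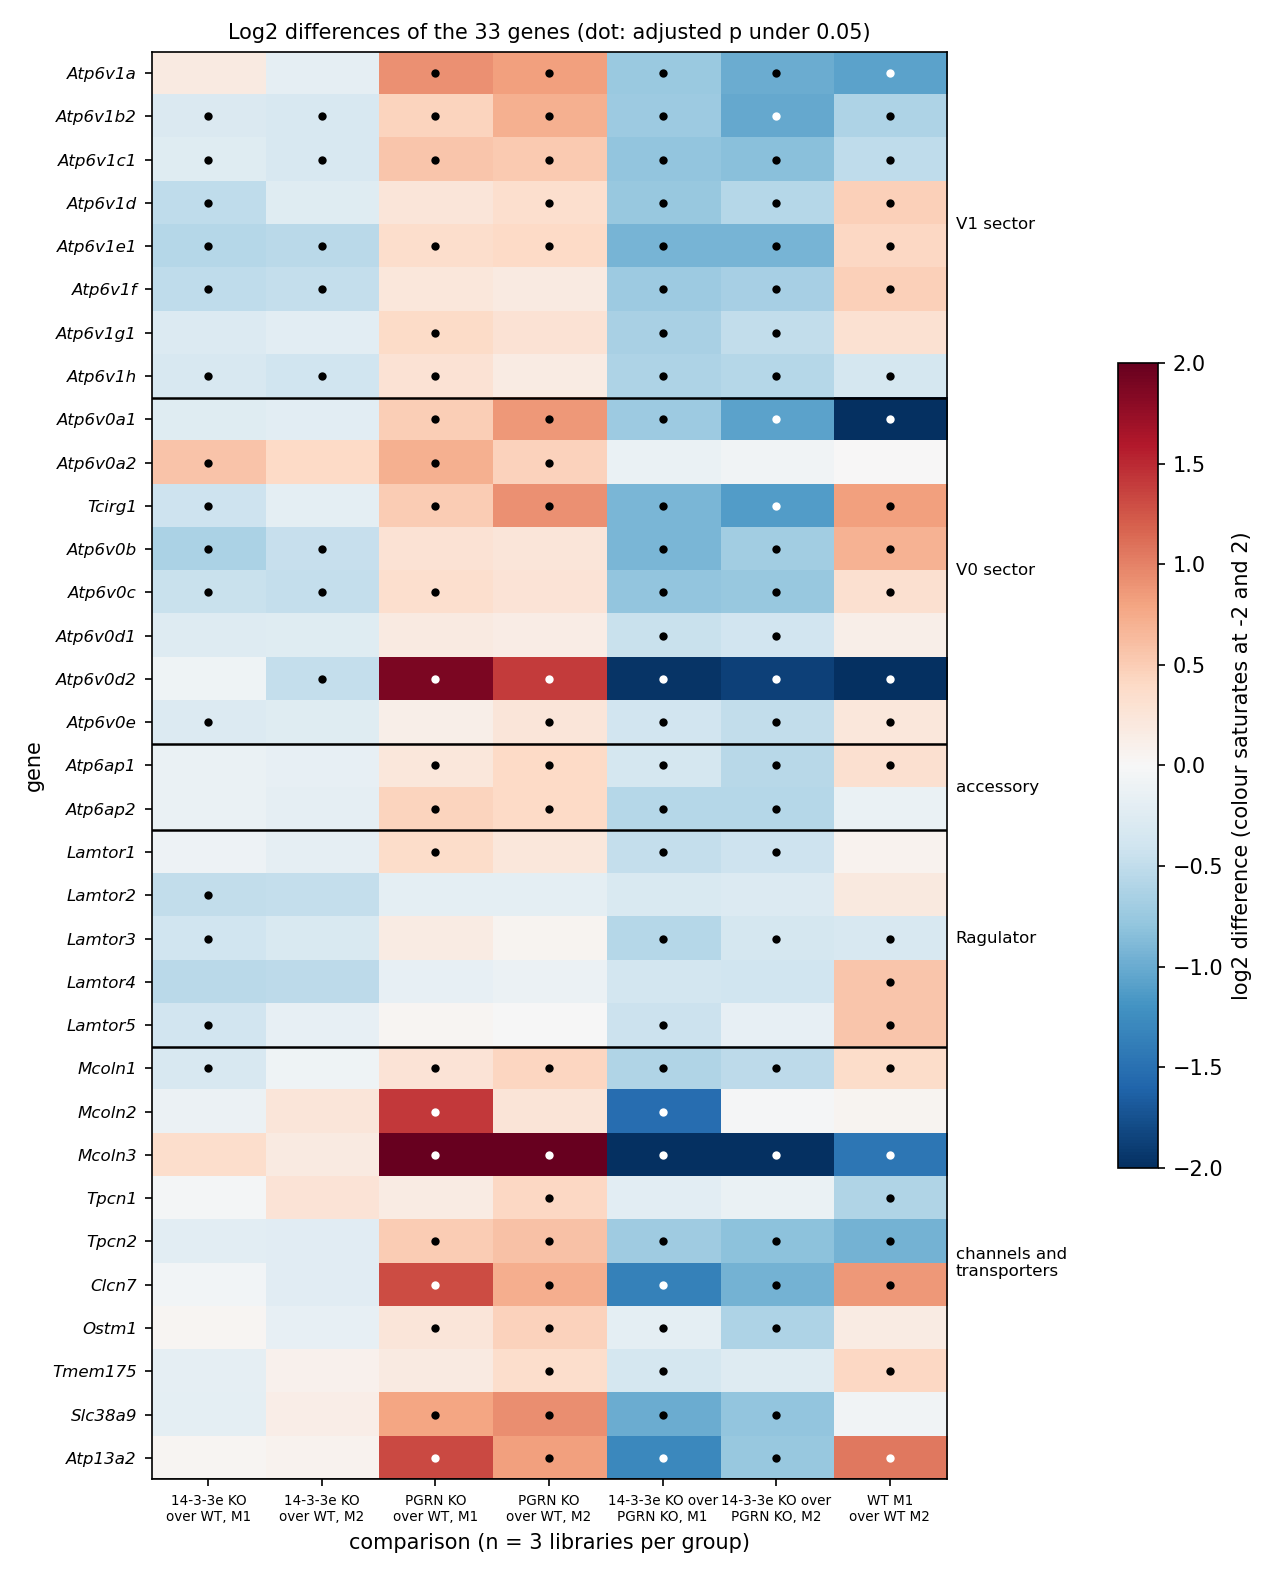
Log2 differences of the 33 genes (rows, grouped by complex) in 7 comparisons (columns, 3 libraries per group); colour gives the size and sign, saturating at -2 and 2, and dots mark adjusted p under 0.05. The PGRN KO columns are almost wholly positive and the 14-3-3e KO columns mostly negative, while the column of WT M1 over WT M2 is mixed.

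Loss of progranulin came with higher transcript levels across the pump and its channels. In PGRN KO M1 cells 22 of the 33 genes rose and 0 fell relative to WT M1, where 14.2% of all tested genes rose and 11.1% fell (23.1% and 15% of the 11645 genes with at least 5 CPM). In PGRN KO M2 cells 21 rose and 0 fell relative to WT M2, where 11.1% of all tested genes rose and 8.3% fell (18.9% and 13.2% of those with at least 5 CPM). At an unadjusted p under 0.05, 24 were higher and 0 lower in each polarization, and with precision weights on the recovered reads (voom) 22 and 23 were higher and 0 lower. The median log2 difference of the 33 genes was 0.36 in M1 and 0.40 in M2, against 0.01 and 0.00 over all tested genes. The genes that rose in M1 and in M2 numbered 17, and they lay in every group except Ragulator.

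Mcoln3, which encodes the cation channel TRPML3 of early and late endosomes, differed most (chromosome 3, 146117450 to 146141806, plus strand, GRCm38 with GENCODE M21). It had 113, 84.7 and 88.3 normalized counts in the PGRN KO M1 libraries, against 8.92, 7.51 and 9.14 in WT M1, and 249, 221 and 184 in PGRN KO M2, against 25.3, 22.4 and 26.8 in WT M2. Every PGRN KO library lay above every WT library of its polarization. The log2 differences were 3.33 ± 0.24 in M1 and 3.08 ± 0.24 in M2 (adjusted p = 1.54e-07 and 4.45e-07). The gene is a low-count one: the 3 WT M1 libraries held 2, 5 and 3 recovered reads. Over pooled reads the ratio was 11.2 in M1 (279 reads against 10; exact 95% interval 5.99 to 23.6) and 9.22 in M2 (1140 reads against 82; 7.36 to 11.7), intervals that cover counting error only.

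The neighbouring paralog Mcoln2, which starts 8026 bases beyond the end of Mcoln3 on the same strand and encodes TRPML2, a channel of recycling endosomes, rose in M1 and not past the threshold in M2. It had 2150.2, 2002 and 2033 normalized counts in PGRN KO M1, against 629, 757 and 972 in WT M1 (1.41 ± 0.15, adjusted p = 5.87e-06). In M2 the values were 968, 867 and 841 in PGRN KO, against 657, 789.8 and 801 in WT (0.25 ± 0.15, adjusted p = 0.262). The groups did not overlap in either polarization, and the gap between them was far wider in M1. Tested directly, the PGRN KO effect was larger in M1 than in M2 by 1.16 ± 0.21 (adjusted p = 0.0125). The ubiquitous family member Mcoln1, encoding the lysosomal calcium release channel TRPML1, rose by 0.27 ± 0.07 in M1 and by 0.44 ± 0.07 in M2 (adjusted p = 0.0100 and 0.000426).

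Clcn7 and Atp13a2 rose most in M1 among the other channels and transporters. These genes, Slc38a9 in M1, Atp6v1a, Lamtor2 and Atp6v1f are given in full by a choice made after their values were seen. Clcn7, which encodes the exchanger that moves chloride into lysosomes, had 13067, 11245 and 12507 normalized counts in PGRN KO M1, against 4468, 4910.2 and 5626 in WT M1 (1.30 ± 0.10, adjusted p = 3.79e-07), and 4779, 4341 and 4417 in PGRN KO M2, against 2537, 2662 and 3013 in WT M2 (0.72 ± 0.10, adjusted p = 0.000127). Atp13a2, encoding the polyamine exporter, had 17239, 15098 and 16669 in PGRN KO M1, against 5846, 6489 and 7360.5 in WT M1 (1.32 ± 0.08, adjusted p = 6.03e-08), and 5793, 5253 and 5631 in PGRN KO M2, against 3161, 2992 and 3253 in WT M2 (0.83 ± 0.08, adjusted p = 5.85e-06). Neither gene's knockout libraries overlapped the WT libraries in M1 or in M2. Ostm1, the obligate partner subunit of ClC-7, rose less, by 0.23 ± 0.07 in M1 (adjusted p = 0.0159) and by 0.45 ± 0.07 in M2 (adjusted p = 0.00016).

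Slc38a9, whose product reports lysosomal arginine to Ragulator, had 491, 481 and 509 normalized counts in PGRN KO M1, against 294, 311 and 256 in WT M1 (0.78 ± 0.09, adjusted p = 1.57e-05). In M2 it had 585, 602 and 530.3 in PGRN KO, against 305, 294 and 304 in WT (0.92 ± 0.09, adjusted p = 4.31e-06). Knockout and WT values were again fully apart. Among the remaining channels, Tpcn2 rose in both polarizations (0.50 ± 0.11 and 0.59 ± 0.11 in M1 and M2, adjusted p = 0.00389 and 0.00161). Tpcn1, its endosomal relative, and the potassium channel gene Tmem175 rose in M2 (0.41 ± 0.11 and 0.35 ± 0.10, adjusted p = 0.0123 and 0.0197), with 0.16 ± 0.11 and 0.18 ± 0.10 in M1 (adjusted p = 0.314 and 0.209), and the effects did not differ past the threshold between M1 and M2 (adjusted p = 0.513 and 0.669). Tmem175 shares 2090 exonic bases with Dgkq on the opposite strand, and the strandedness of the libraries is not given, so its reads and those of Dgkq cannot be told apart there.

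**Figure D3:**
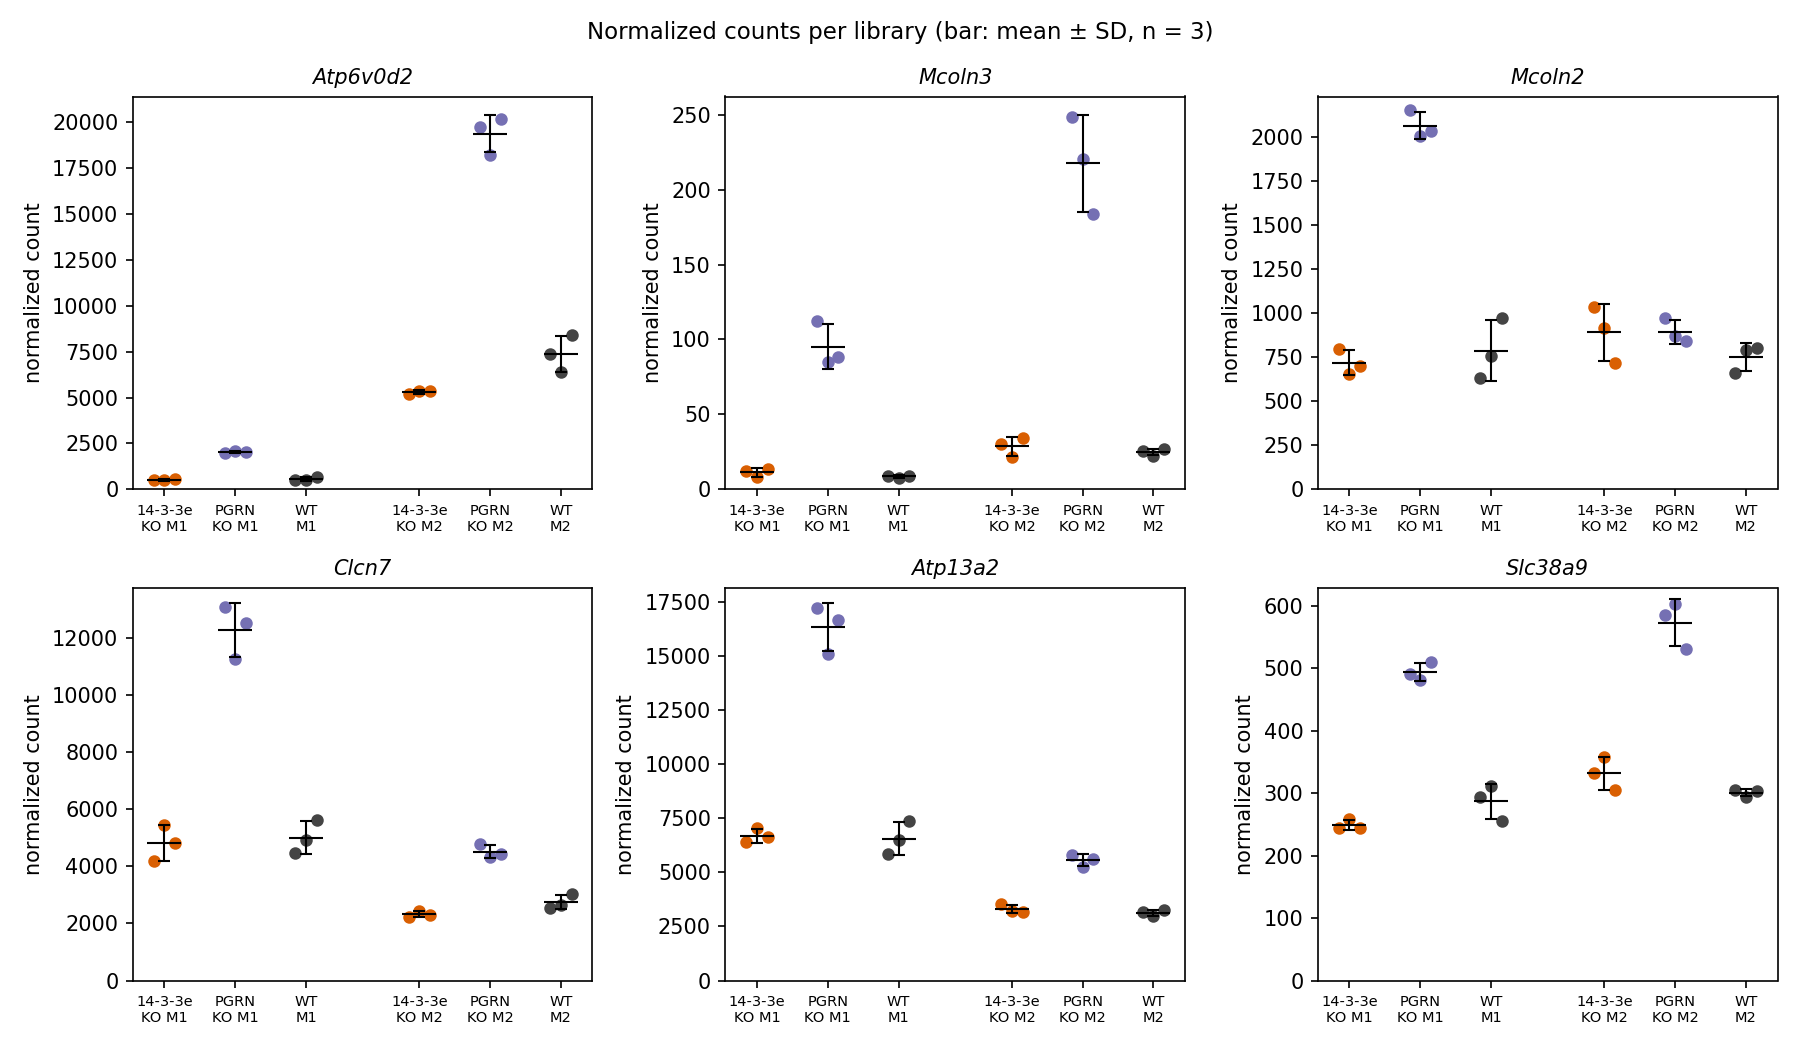
Normalized counts per library of 6 genes in the M1 groups (left of each panel) and the M2 groups (right), with bars for mean ± SD (n = 3). PGRN KO libraries stand above WT and 14-3-3e KO libraries for Atp6v0d2, Mcoln3, Clcn7, Atp13a2 and Slc38a9 in both polarizations, and for Mcoln2 clearly in M1.

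In the V0 sector the largest rise was that of Atp6v0d2 (chromosome 4, 19876841 to 19922605, minus strand), which encodes the d2 subunit that couples the rotor to the proteolipid ring and is known from osteoclasts and macrophages. It had 1958, 2107 and 2021 normalized counts in PGRN KO M1, against 499, 500.3 and 671 in WT M1 (1.88 ± 0.11, adjusted p = 3.8e-08). In M2 it had 19739.5, 18237 and 20189.9 in PGRN KO, against 7378, 6410.4 and 8389 in WT (1.40 ± 0.11, adjusted p = 6.46e-07). All knockout libraries lay far above all WT libraries in each polarization. Its constitutive paralog Atp6v0d1 did not pass in either (0.19 ± 0.09 and 0.15 ± 0.09, adjusted p = 0.160 and 0.281). The a subunits, which carry the proton path and direct the pump to its membrane, rose together. Atp6v0a1, Atp6v0a2 and Tcirg1 differed by 0.49, 0.71 and 0.51 in M1 and by 0.87, 0.46 and 0.92 in M2, all 6 past the threshold (adjusted p = 2.61e-05 to 0.0355). Of the ring genes, Atp6v0c rose in M1 (0.33 ± 0.09, adjusted p = 0.0166) with 0.28 ± 0.09 in M2 (adjusted p = 0.0515), and Atp6v0b did not pass (0.29 and 0.24, adjusted p = 0.0995 and 0.205). Atp6v0e, a small membrane subunit, rose in M2 by 0.25 ± 0.08 (adjusted p = 0.0384), with 0.11 ± 0.08 in M1 (adjusted p = 0.336).

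In the V1 sector 6 of 8 genes rose in M1 and 5 of 8 in M2. The catalytic A subunit gene Atp6v1a rose most, with 7506, 6668 and 7347 normalized counts in PGRN KO M1, against 3197, 3959 and 4374 in WT M1 (0.91 ± 0.11, adjusted p = 1.69e-05), and 14842, 13308 and 14319.8 in PGRN KO M2, against 7223, 8222 and 8734 in WT M2 (0.82 ± 0.11, adjusted p = 5.65e-05). Atp6v1b2, encoding the B subunit that alternates with A in the ATPase ring, rose by 0.45 ± 0.07 in M1 and 0.71 ± 0.07 in M2 (adjusted p = 0.000234 and 4.87e-06). Atp6v1c1, encoding the subunit through which V1 attaches to V0 reversibly, rose by 0.55 ± 0.08 and 0.52 ± 0.08 (adjusted p = 0.000123 and 0.00026), and the stator gene Atp6v1e1 by 0.36 ± 0.10 and 0.40 ± 0.10 (adjusted p = 0.0143 and 0.00921). The other stator gene Atp6v1g1 and the regulatory Atp6v1h rose in M1 (0.38 and 0.29, adjusted p = 0.0367 and 0.0190), with 0.29 and 0.17 in M2 (adjusted p = 0.131 and 0.190). Of the central stalk genes, Atp6v1d rose in M2 (0.33 ± 0.11, adjusted p = 0.0351) with 0.25 ± 0.11 in M1 (adjusted p = 0.102), and Atp6v1f passed in neither (0.22 and 0.18, adjusted p = 0.232 and 0.381). Both accessory proteins rose in both polarizations. Atp6ap1 rose by 0.22 ± 0.06 in M1 and 0.39 ± 0.06 in M2, and Atp6ap2, the prorenin receptor, by 0.45 ± 0.07 and 0.40 ± 0.07 (adjusted p = 0.000236 to 0.0125).

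In Ragulator 1 of 5 genes rose in M1 and 0 of 5 in M2, counts too small to set apart from the 14.2% and 11.1% of all tested genes that rose. Lamtor1, encoding the lipid-anchored subunit that holds the complex on the membrane, rose in M1 by 0.37 ± 0.08 (adjusted p = 0.00288), with 0.23 ± 0.08 in M2 (adjusted p = 0.0572). The 4 genes of the roadblock-domain pairs, Lamtor2 with Lamtor3 and Lamtor4 with Lamtor5, did not pass in either polarization, with log2 differences of -0.20 to 0.17 in M1 and -0.20 to 0.05 in M2. In M2, where limma called 0 Ragulator genes, 1 passed at an unadjusted p under 0.05 and 1 with voom. Lamtor2 had 1557, 1394 and 1501 normalized counts in PGRN KO M1, against 2198, 1239.6 and 1795 in WT M1, so that the WT libraries lay on either side of the knockout ones.

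The stromal marker sum was lower in every PGRN KO library than in every WT library of the same polarization. The part of stromal cells in the rises was not tested. The sum of the 10 macrophage markers without Lyz2 was higher, also without overlap, at 5194 to 6251 CPM in PGRN KO M1 against 3645 to 4837 CPM in WT M1, and at 4942 to 5628 CPM in PGRN KO M2 against 3790 to 4754 CPM in WT M2. The markers in this sum did not move evenly. In M1 the mean of Cd68, itself in the list of lysosomal membrane genes, was 1374.5 CPM in PGRN KO against 713 CPM in WT. Spi1 had 444 CPM in PGRN KO M1 against 435 CPM in WT M1. Cd14 was lower in PGRN KO (149 against 241 CPM in M1, 23.9 against 32.1 CPM in M2), as was Marco in M2, and the other means were higher. The part of the macrophage markers in the rises was not tested. The log2 of the stromal marker sum was made a term of the fit, an alternative added after the data were seen. Because the sum moves with genotype, this fit cannot separate the 2, and neither kept nor lost calls decide between them. With this stromal term 12 genes were higher and 2 lower in PGRN KO M1, and 17 higher and 2 lower in PGRN KO M2. The 2 lower ones were Lamtor2 (-0.60 and -0.61 in M1 and M2) and Lamtor4 (-0.80 and -0.75). Mcoln3 (3.28 and 3.03), Atp6v0d2 (1.82 and 1.34), Atp13a2 (1.31 and 0.82) and Clcn7 (1.27 and 0.69) kept their calls. Leaving out the other groups reduced the M1 count to 12 genes higher and left the M2 count at 21.

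Promoter sequences were read because the genes moved together, and because TFEB and its relatives, transcription factors of lysosomal genes, bind sites around the core CACGTG. RefSeq start-site windows of 300 bases (250 before to 50 after the start, GRCm38.p6) were listed for 25 of the 33 genes. CACGTG, which is its own reverse complement, lay in the windows of 9 of the 25 genes (36.0%), against 8.09% of the 27025 genes with a window. The longer TCACGTGA, which contains it, lay in 5 of 25 (20.0%), against 1.12%. The 25 genes come from a list chosen for lysosomal roles, and the 27025 were not matched to them for expression or base content. The excess was not tested. CACGTG was found in 5 of the 16 genes that rose in PGRN KO M1 and in 4 of the 9 that did not pass, and in M2 in 4 of 16 and 5 of 9. A match is a description of the letters and not a measured binding site. The stretches below each show a match with 20 bases on either side, read along the gene's strand, with matched letters in capitals; those of Atp6v0b and Lamtor4 also take in a further match.
Clcn7 promoter, chr17:25133377-25133424, plus strand: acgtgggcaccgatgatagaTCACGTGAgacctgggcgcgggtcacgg
Atp6v1a promoter, chr16:44139364-44139411, minus strand: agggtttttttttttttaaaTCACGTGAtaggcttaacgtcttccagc
Mcoln1 promoter, chr8:3500453-3500500, plus strand: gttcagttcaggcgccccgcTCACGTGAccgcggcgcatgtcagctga
Atp6v0d1 promoter, chr8:105566041-105566088, minus strand: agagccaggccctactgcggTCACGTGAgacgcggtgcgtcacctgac
Atp6v0e promoter, chr17:26676378-26676425, plus strand: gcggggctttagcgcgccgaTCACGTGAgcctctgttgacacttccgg
Mcoln2 promoter, chr3:146150082-146150127, plus strand: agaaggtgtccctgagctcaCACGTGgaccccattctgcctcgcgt
Atp6v0b promoter, chr4:117887340-117887385, minus strand: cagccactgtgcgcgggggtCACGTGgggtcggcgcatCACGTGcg
Lamtor1 promoter, chr7:101905749-101905794, plus strand: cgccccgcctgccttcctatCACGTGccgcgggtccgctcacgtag
Lamtor4 promoter, chr5:138255342-138255387, plus strand: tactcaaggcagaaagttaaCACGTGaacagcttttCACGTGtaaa
Of these, Clcn7, Atp6v1a and Mcoln1 rose in both polarizations, while Atp6v0d1, Atp6v0b and Lamtor4 passed in neither. The whole windows of the strong risers Clcn7 and Mcoln3 are shown next, since the first holds CACGTG at 2 places and the second, which differed most of all, at 0. The RefSeq window of Mcoln3 lies inside the gene span that GENCODE gives, and the sequence at the GENCODE start was not read.
Clcn7 promoter, chr17:25133141-25133440, plus strand: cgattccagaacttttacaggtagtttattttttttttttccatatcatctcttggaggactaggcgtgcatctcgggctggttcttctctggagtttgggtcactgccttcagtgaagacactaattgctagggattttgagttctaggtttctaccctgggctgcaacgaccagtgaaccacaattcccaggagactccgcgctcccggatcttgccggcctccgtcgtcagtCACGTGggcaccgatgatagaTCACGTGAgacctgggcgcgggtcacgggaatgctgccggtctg
Mcoln3 promoter, chr3:146121541-146121840, plus strand: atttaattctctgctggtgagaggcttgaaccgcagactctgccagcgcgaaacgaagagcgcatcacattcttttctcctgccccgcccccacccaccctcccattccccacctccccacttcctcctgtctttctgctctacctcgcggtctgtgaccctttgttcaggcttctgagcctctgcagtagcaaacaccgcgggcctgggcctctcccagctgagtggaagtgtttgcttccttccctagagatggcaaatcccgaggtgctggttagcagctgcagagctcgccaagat

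In 14-3-3e KO cells more pump genes were lower than higher. In M1, 1 of the 33 genes rose and 14 fell relative to WT M1, where 12% of all tested genes rose and 9.31% fell (18.2% and 14.2% of those with at least 5 CPM). In M2, 0 rose and 8 fell relative to WT M2, where 3.32% of all tested genes rose and 3.37% fell (4.93% and 5.47% of those with at least 5 CPM). By unadjusted p under 0.05, 2 were higher and 19 lower in M2, and voom called 0 higher and 9 lower there. The median difference of the 33 genes was -0.24 in M1 and -0.21 in M2, against 0.07 and 0.00 over all tested genes. The 7 genes that fell in both polarizations all belong to the pump: Atp6v1b2, Atp6v1c1, Atp6v1e1, Atp6v1f, Atp6v1h, Atp6v0b and Atp6v0c. These differences and those of PGRN KO were measured against the same WT libraries.

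The stator gene Atp6v1e1 had 4027, 3453 and 3817 normalized counts in 14-3-3e KO M1, against 6542, 4734 and 5581 in WT M1 (-0.57 ± 0.10, adjusted p = 0.00142), and 2912, 2773 and 2998 in 14-3-3e KO M2, against 4514, 3864 and 4207 in WT M2 (-0.53 ± 0.10, adjusted p = 0.00439). Atp6v0b, which encodes a ring subunit, had 4290.2, 4156 and 4158 in 14-3-3e KO M1, against 8566, 5129.6 and 6193 in WT M1 (-0.63 ± 0.13, adjusted p = 0.00334). The knockout libraries lay below all WT libraries in each case, and most of the spread was among the WT libraries. Atp6v0c, the main ring gene, had 12971, 13973 and 13416 in 14-3-3e KO M2, against 19362, 16674 and 20460.1 in WT M2 (-0.48 ± 0.09, adjusted p = 0.00674), with -0.45 ± 0.09 in M1 (adjusted p = 0.00467). The stalk gene Atp6v1f had 1837, 1876 and 1827 in 14-3-3e KO M2, against 2781, 2298 and 2668 in WT M2 (-0.48 ± 0.13, adjusted p = 0.0360), with -0.51 ± 0.13 in M1 (adjusted p = 0.0122). Again no knockout library reached a WT library.

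The exception was Atp6v0a2, whose a2 isoform is known from the Golgi and early endosomes. It had 896, 1103 and 977 normalized counts in 14-3-3e KO M1, against 491, 779.8 and 762 in WT M1, with no overlap (0.58 ± 0.15, adjusted p = 0.0127), and 0.40 ± 0.15 in M2 (adjusted p = 0.116). Its exons share 663 bases with the antisense gene 4930404A12Rik. Atp6v0d2, the strongest V0 riser in PGRN KO, had 505, 480.3 and 585 in 14-3-3e KO M1, against 499, 500.3 and 671 in WT M1, and these overlap (-0.08 ± 0.11, adjusted p = 0.665). In M2 it fell, to 5179, 5365 and 5366 in 14-3-3e KO, against 7378, 6410.4 and 8389 in WT (-0.47 ± 0.11, adjusted p = 0.0216). Among Ragulator genes Lamtor2, Lamtor3 and Lamtor5 fell in M1 (-0.49, -0.41 and -0.38, adjusted p = 0.0113 to 0.0235), and 0 of 5 passed in M2, where 4 were lower at an unadjusted p under 0.05 and voom called 1. Of the channels and transporters Mcoln1 alone passed, in M1 (-0.32 ± 0.07, adjusted p = 0.00652), and 0 of 10 did in M2 (3 at an unadjusted p under 0.05, 0 with voom). The risers of PGRN KO did not pass here: Mcoln3 differed by 0.35 ± 0.24 and 0.18 ± 0.24 in M1 and M2, Clcn7 by -0.06 ± 0.10 and -0.23 ± 0.10, and Atp13a2 by 0.03 ± 0.08 and 0.08 ± 0.08.

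The number of genes past the threshold in 14-3-3e KO was not firm. With only the groups compared in the fit it was 0 in M1 and 8 in M2, and with the stromal term 1 (Atp6v1e1) in M1 and 0 in M2. Scaling by library totals moved the median of all genes by 0.06 in M1 and 0.11 in M2 and left 1 gene higher and 10 lower in M1, and 1 higher (Tpcn1) and 3 lower in M2. In M1 it was 7 without 14-3-3e KO M1 replicate 2. In M2 it was 16 without WT M1 replicate 1, 5 without WT M2 replicate 1, 2 without WT M2 replicate 3, and 3, 4 and 4 without 14-3-3e KO M2 replicates 1, 2 and 3. WT M1 replicate 1 was the shallowest library. It held the highest WT M1 value of every gene that fell in 14-3-3e KO M1 except Atp6v1c1, and also that of Lamtor4. The stromal marker sum was higher in 14-3-3e KO than in WT in every library of M1. In M2 there was 1 overlap, WT M2 replicate 2 lying above the lowest knockout library. The part of stromal cells in the result was not tested, because the stromal term moves with genotype. Lyz2, a lysozyme gene of myeloid cells, was lower in 14-3-3e KO (-1.82 ± 0.45 in M1, adjusted p = 0.0144; -2.24 ± 0.45 in M2, adjusted p = 0.0120), whereas the sum of the 10 other macrophage markers was 4378 to 5160 CPM in 14-3-3e KO M1 against 3645 to 4837 CPM in WT M1, and 4347 to 4845 CPM in 14-3-3e KO M2 against 3790 to 4754 CPM in WT M2, overlapping in both.

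Set against each other, the knockouts differed in nearly every gene. In 14-3-3e KO M1 0 of the 33 genes were higher and 29 lower than in PGRN KO M1, where 12.5% of all tested genes were higher and 12.5% lower (17.8% and 20.5% of those with at least 5 CPM). In M2 0 were higher and 26 lower, where 8.29% of all tested genes were higher and 9.92% lower (12.4% and 16.4% of those with at least 5 CPM). By unadjusted p under 0.05 and by voom 0 were higher in either polarization, and all 33 point estimates were negative. The median log2 difference was -0.71 in M1 and -0.57 in M2, against 0.04 and -0.00 over all tested genes. Mcoln3 (-2.98 ± 0.24 in M1 and -2.90 ± 0.24 in M2) and Atp6v0d2 (-1.96 ± 0.11 and -1.87 ± 0.11) stood furthest apart, followed in M1 by Mcoln2 (-1.53 ± 0.15), Clcn7 (-1.36 ± 0.10) and Atp13a2 (-1.29 ± 0.08; adjusted p = 7e-09 to 1.19e-06 for these genes). All 8 V1 genes and 7 of 8 V0 genes were lower in both polarizations, the exception being Atp6v0a2 (-0.14 and -0.07, adjusted p = 0.581 and 0.858). Ragulator was lower for 3 of 5 genes in M1 and 2 of 5 in M2. The 2 knockouts were also the extremes of the stromal sum, and with that sum as a term 8 genes in M1 and 14 in M2 were lower. The standard error of the Mcoln3 difference in M1 then grew from 0.24 to 0.51. Library totals moved the median of all genes by 0.15 in each polarization, and 24 genes in M1 and 22 in M2 were then lower and 0 higher.

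Between polarizations some of the 33 genes were higher in M1 and others in M2. In WT cells 14 of the 33 genes were higher and 10 lower in M1 than in M2, where 18.9% of all tested genes were higher and 20% lower (26.6% and 30.9% of those with at least 5 CPM). PGRN KO cells had 13 higher and 9 lower, where 18% of all tested genes were higher and 19.5% lower (27.1% and 30.5% of those with at least 5 CPM). In 14-3-3e KO cells 10 were higher and 11 lower, where 15.6% of all tested genes were higher and 14.4% lower (23.5% and 23.5% of those with at least 5 CPM). The counts of lower genes in WT and PGRN KO were near the shares of all genes with at least 5 CPM. The median difference of the 33 genes was 0.17 in WT, 0.20 in PGRN KO and 0.15 in 14-3-3e KO, against -0.04, -0.04 and 0.03 over all tested genes. Scaling by library totals moves the median of all genes by -0.16, -0.18 and -0.19 in these comparisons, and the split of the calls then becomes 6 higher and 11 lower in WT, 5 and 13 in PGRN KO and 3 and 13 in 14-3-3e KO. With only the groups compared in the fit, WT had 7 higher and 8 lower.

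The clearest shifts were among the a and d subunits. Atp6v0d2 had 499, 500.3 and 671 normalized counts in WT M1, against 7378, 6410.4 and 8389 in WT M2 (-3.73 ± 0.11, adjusted p = 7.6e-14), and Atp6v0a1 had 2167, 2349.9 and 2529.7 in WT M1, against 13121, 14985 and 17467 in WT M2 (-2.69 ± 0.10, adjusted p = 1.87e-12). Tcirg1, whose a3 isoform serves lysosomes and the osteoclast border, went the opposite way, with 11295, 9146 and 9607 in WT M1, against 5144, 5456 and 6525 in WT M2 (0.81 ± 0.11, adjusted p = 1.91e-05). No M1 library overlapped an M2 library for any of these genes. Per kb of exon, Tcirg1 made up 80.7 to 85.9% of the a-subunit transcripts of WT M1 libraries, against 33.1 to 34.8% in WT M2, while Atp6v0a1 made up 11.6 to 14.9% in WT M1, against 62.3 to 63.9% in WT M2. The ratio of Atp6v0d2 to Atp6v0d1 per kb was 0.0638 to 0.112 in WT M1, against 1.14 to 1.39 in WT M2. The absolute level of these shares and ratios depends on the exon lengths used. Atp6v0d1 itself did not pass, with a mean of 4307 ± 751 normalized counts in WT M1 and 3954 ± 230 in WT M2 (SD).

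These shifts had the same form in the knockouts. The share of Atp6v0a1 was 12.3 to 17.9% in 14-3-3e KO M1 and 13.1 to 13.7% in PGRN KO M1, and in M2 58.7 to 64.9% in 14-3-3e KO and 62.3 to 63.8% in PGRN KO, overlapping the WT range in each polarization. The ratio of Atp6v0d2 to Atp6v0d1 was 0.0897 to 0.113 in 14-3-3e KO M1, 0.263 to 0.285 in PGRN KO M1 and 0.0638 to 0.112 in WT M1. In M2 it was 1.02 to 1.07 in 14-3-3e KO, 2.83 to 3.04 in PGRN KO and 1.14 to 1.39 in WT. The PGRN KO range lay wholly above the WT range in M1 and in M2. Mcoln3 relative to Mcoln1 per kb was 0.142 to 0.187 in PGRN KO M1, against 0.0154 to 0.0196 in WT M1, and 0.360 to 0.454 in PGRN KO M2, against 0.0587 to 0.0714 in WT M2. Mcoln2 relative to Mcoln1 was 3.44 to 3.77 in PGRN KO M1, against 1.21 to 2.19 in WT M1, but overlapped in M2, with 1.74 to 1.87 in PGRN KO and 1.72 to 2.25 in WT.

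**Figure D4:**
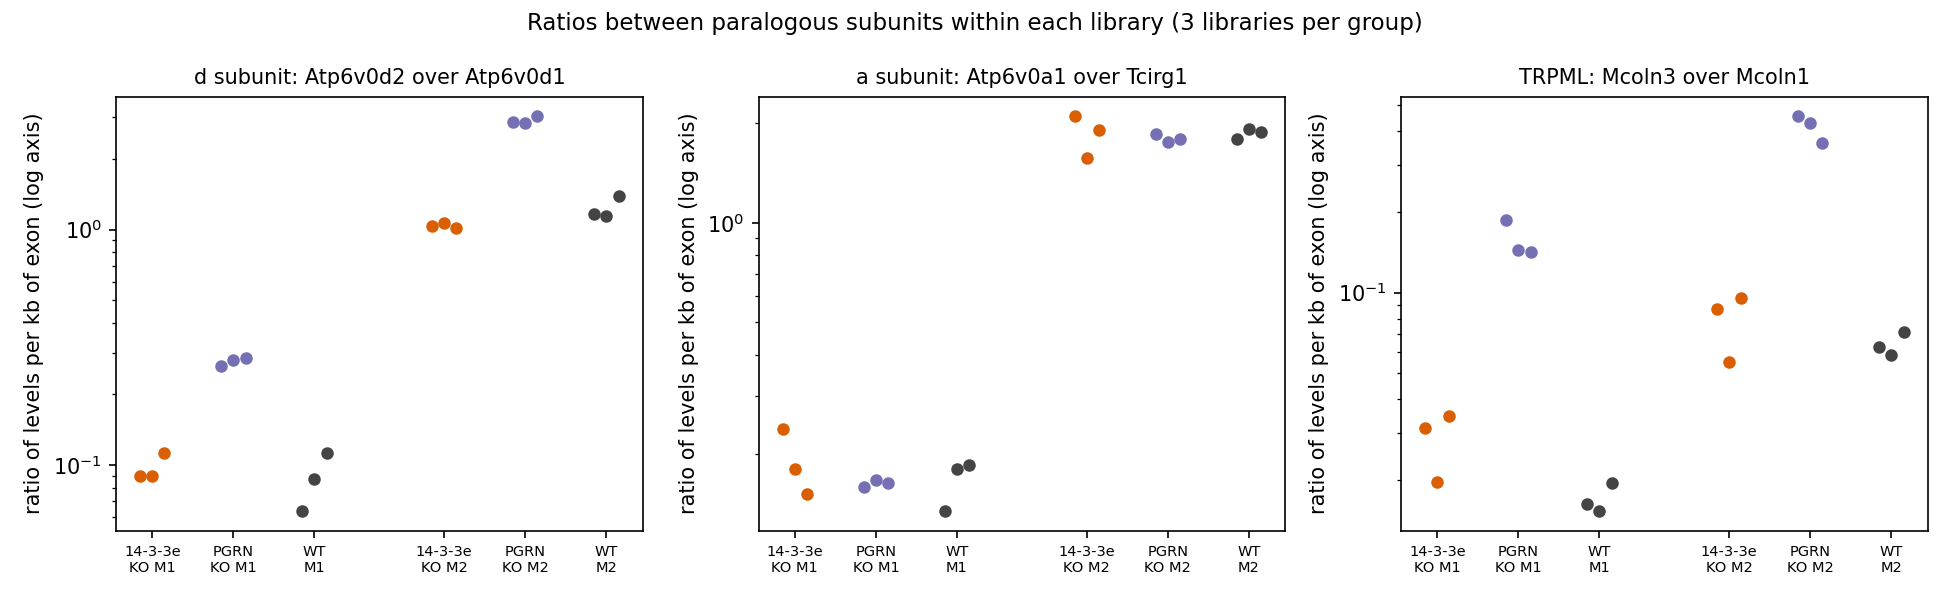
Ratios of levels per kb of exon between paralogous genes in each library (log axis, 1 point per library, 3 per group), for Atp6v0d2 over Atp6v0d1, Atp6v0a1 over Tcirg1 and Mcoln3 over Mcoln1. The Atp6v0d2 and Mcoln3 ratios are higher in PGRN KO than in WT in each polarization, while the a-subunit ratio separates M1 from M2 and overlaps between genotypes.

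Other pump genes also differed in both directions. Of V1 genes, Atp6v1a (-1.08 ± 0.11), Atp6v1b2 (-0.62 ± 0.07), Atp6v1c1 (-0.51 ± 0.08) and Atp6v1h (-0.35 ± 0.08) were lower in WT M1 than in WT M2, while Atp6v1d, Atp6v1e1 and Atp6v1f were higher (0.47, 0.41 and 0.48; adjusted p = 3.9e-07 to 0.00671 for the 7). The ring genes Atp6v0b (0.69 ± 0.13) and Atp6v0c (0.32 ± 0.09) were higher in M1 (adjusted p = 0.000264 and 0.0131), as were Atp6v0e (0.23 ± 0.08, adjusted p = 0.0300) and Atp6ap1 (0.32 ± 0.06, adjusted p = 0.000408). In Ragulator, Lamtor5 and Lamtor4 were higher in M1 (0.56 each, adjusted p = 0.000588 and 0.0428) and Lamtor3 lower (-0.32 ± 0.10, adjusted p = 0.0175).

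Channels and transporters were divided too. Mcoln3 had 8.92, 7.51 and 9.14 normalized counts in WT M1, against 25.3, 22.4 and 26.8 in WT M2, with no overlap (-1.44 ± 0.24, adjusted p = 0.000125). Tpcn2 (-0.95 ± 0.11, adjusted p = 3.38e-06) and Tpcn1 (-0.60 ± 0.11, adjusted p = 0.000233) were lower in M1 as well. Atp13a2 (1.06 ± 0.08, adjusted p = 2.41e-08) and Clcn7 (0.87 ± 0.10, adjusted p = 3.2e-06) were higher in M1, as were Tmem175 (0.41 ± 0.10, adjusted p = 0.00287) and Mcoln1 (0.37 ± 0.07, adjusted p = 0.000496). Mcoln2 did not differ past the threshold between WT M1 and WT M2 (0.05 ± 0.15, adjusted p = 0.823), whereas in PGRN KO it was higher in M1 (1.21 ± 0.15, adjusted p = 4.18e-06).

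The effects of the knockouts were then compared between polarizations. For PGRN KO, 1 of 33 genes differed, Mcoln2 as given above, where 1.25% of all tested genes differed, and 8 had an unadjusted p under 0.05. Clcn7 (0.58 ± 0.15, adjusted p = 0.0681), Atp13a2 (0.49 ± 0.12, adjusted p = 0.0563) and Atp6v0d2 (0.48 ± 0.16, adjusted p = 0.178) had larger estimates in M1, and Tcirg1 (-0.41 ± 0.16, adjusted p = 0.257) and Atp6v0a1 (-0.38 ± 0.15, adjusted p = 0.256) in M2, and none of these passed. The count was 4 without WT M1 replicate 3 and 2 without WT M1 replicate 1, PGRN KO M1 replicate 2 or 14-3-3e KO M1 replicate 1. For 14-3-3e KO, 0 of 33 differed by limma and by voom (5 at an unadjusted p under 0.05), where 0.286% of all tested genes did. These tests do not show that the effects were equal.

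Lists of related genes place the 33 beside the rest of the lysosome in PGRN KO, where 14.2% of all tested genes rose and 11.1% fell in M1, and 11.1% rose and 8.3% fell in M2. In M1 and M2, 21 and 21 of 28 glycan and lipid hydrolases rose and 0 fell, among them Psap (1.33 ± 0.10 and 1.08 ± 0.10), the precursor of the saposins, and Galns (0.80 ± 0.08 and 1.05 ± 0.08). Of 14 lysosomal proteases 10 and 10 rose and 2 and 2 fell, with the cathepsin gene Ctsb up by 0.96 ± 0.10 and 0.92 ± 0.10. Of 29 other lysosomal transporters 17 and 18 rose and 0 and 1 fell, with Mfsd12, needed for cysteine import into lysosomes and melanosomes, up by 1.15 ± 0.08 and 1.01 ± 0.08. Of 12 lysosomal membrane genes 7 and 9 rose and 1 and 0 fell. Of 12 V-ATPase assembly and regulation genes 5 and 6 rose and 1 and 1 fell, with Wdr7, a subunit of the rabconnectin complex, up by 0.98 ± 0.12 and 1.05 ± 0.12. The median differences of these lists ran from 0.25 to 0.60 in M1 and from 0.34 to 0.73 in M2, against 0.01 and 0.00 over all tested genes.

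Partners of Ragulator, the TFEB family and other pump isoforms are read against the same shares of all tested genes, 14.2% higher and 11.1% lower in M1, and 11.1% higher and 8.3% lower in M2. Of 28 genes of amino acid signalling to mTORC1, 10 rose and 0 fell in PGRN KO M1, and 11 rose and 5 fell in PGRN KO M2. Rragd, which encodes one of the Rag GTPases held by Ragulator, rose by 2.74 ± 0.18 in M1 (adjusted p = 8.08e-08) and by 1.75 ± 0.18 in M2 (adjusted p = 6.75e-06), and Fnip2, of the folliculin complex that acts on it, by 1.25 ± 0.14 and 1.06 ± 0.14 (adjusted p = 1.06e-05 and 5.64e-05). Of the 4 TFEB family genes 2 rose and 0 fell in M1, and 2 rose and 1 fell in M2. Mitf rose in both (0.58 ± 0.10 and 0.52 ± 0.10, adjusted p = 0.0004 and 0.00138), Tfec rose in M1 (0.68 ± 0.13, adjusted p = 0.00105) and fell in M2 (-0.45 ± 0.13, adjusted p = 0.0213), and Tfeb rose in M2 (0.45 ± 0.14, adjusted p = 0.0378). Of 4 tested V-ATPase isoforms known from other tissues, 0 rose and 1 fell in each polarization.

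In 14-3-3e KO the same lists are read against 12% of all tested genes higher and 9.31% lower in M1, and 3.32% higher and 3.37% lower in M2. Of the 28 hydrolases 1 rose and 8 fell in M1, and 0 rose and 6 fell in M2, and of the 14 proteases 1 rose and 6 fell in M1, and 0 rose and 2 fell in M2. The protease gene Lgmn fell in both (-0.74 ± 0.08 and -0.54 ± 0.08, adjusted p = 3.33e-05 and 0.000912). Other lysosomal transporters were evenly divided in M1, with 6 higher and 6 lower of 29, and P2rx4, a purinergic channel of lysosomes, was among the lower ones (-0.56 ± 0.06 in M1 and -0.68 ± 0.06 in M2; adjusted p = 2.21e-05 and 3.48e-06). In M2 1 transporter was higher and 3 lower. Of the 12 membrane genes 0 rose and 4 fell in M1, and 0 rose and 1 fell in M2, and of the 12 assembly and regulation genes 2 rose and 1 fell in M1, and 1 rose and 1 fell in M2. Of the 28 genes of the mTORC1 list 4 rose and 2 fell in M1, and 0 rose and 2 fell in M2. Of the TFEB family 1 rose and 0 fell in M1 (Tfec, 0.42 ± 0.13, adjusted p = 0.0299), and 0 of 4 passed in M2. Of the 4 other pump isoforms 0 passed in either.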

How the data were processed

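RNA from 18 libraries was sequenced, 3 in each of 6 groups taken from the labels. Each deposited value is a log2-transformed normalized count (plus 1) of a gene in a library, made by the authors with STAR, RSEM 1.3.1 and DESeq2, per the submitters' processing notes. Those notes name a human build although the gene IDs are mouse ones, so no build was taken from them; positions are from GENCODE M21 (GRCm38), which holds 42425 of the 43309 IDs. Because the values step in whole reads, read counts were recovered from them (100% of values whole within 0.1), which gave depths of 5.16 M to 105 M reads; a read was worth 4.46 normalized counts in the shallowest library.

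Genes at 1 normalized count or more in 3 or more libraries (21336) were fitted together over the 6 groups with limma 3.58.1 (trend and robust) in R 4.3.3, and p-values were adjusted by Benjamini-Hochberg over all of them with a threshold of 0.05. Figures and tables used Python 3.11.15, numpy 2.4.6, pandas 2.3.3 and matplotlib 3.10.9. The fit was also run on simulated data, in which only well-expressed genes were changed, and by more than most differences called here. That run therefore does not bear on small differences. Per-library values are printed for the 3 members with the largest differences past the threshold and without overlap in each knockout comparison and in WT M1 against M2, for Atp6v0d2, and for the others named in the text; from each list, up to 3 genes with the smallest p were eligible to be named. The members and lists were chosen with earlier results of these data known.

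Alternatives were a pseudocount of 0.1, no filter, at least 5 CPM in at least 3 libraries, only the groups compared, a replicate block, leaving out single libraries, voom on the recovered reads, reads thinned to equal depth, library totals in place of the authors' scaling, dropping the 2 libraries richest in ribosomal RNA-like reads and, added after the data were seen, a stromal marker term. No column was left unmapped.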

Additional observations from a re-analysis of the deposited data

Results flagged for a closer look

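Mcoln2, the TRPML2 channel gene, was in the main fit the 1 member whose response to progranulin loss differed between polarizations by the test of that difference. Of all tested genes 1.25% differed. The PGRN KO effect was larger in M1 than in M2 by 1.16 ± 0.21 on the log2 scale (adjusted p = 0.0125, limma over 21336 genes). Each of the 3 PGRN KO M1 libraries lay above each WT M1 library, with a difference of 1.41 ± 0.15, and the difference in M2 was 0.25 ± 0.15.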

How the results depend on the processing

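Of 189 called differences of the 33 genes, 4928 of 5292 recalculations kept direction and call, 360 kept direction only and 4 reversed. With library totals, Lamtor1 and Mcoln1 became -0.0065 and -0.0137 in PGRN KO M1 against M2; with the stromal term, Ostm1 became 0.0110 (14-3-3e KO M1 against PGRN KO M1) and Lamtor3 0.0851 (the same in M2). The cause was not tested. With only the groups compared, 15 genes passed in WT M1 against M2, 12 in PGRN KO M1 against WT and 0 in 14-3-3e KO M1 against WT. With the stromal term, 14 passed in PGRN KO M1 and 1 in 14-3-3e KO M1 against WT, 0 in 14-3-3e KO M2 against WT, and 8 and 14 in 14-3-3e KO against PGRN KO in M1 and M2. In 14-3-3e KO M2 against WT 5 passed after thinning and 4 with library totals. The PGRN KO effect differed between polarizations for 3 genes with at least 5 CPM and for 2 with the stromal term.

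Leaving out 1 library gave 21 to 26 genes in M1 against M2 for WT, 18 to 25 for PGRN KO and 19 to 24 for 14-3-3e KO. Against WT it gave 19 to 26 (M1) and 16 to 25 (M2) for PGRN KO, and 7 to 18 (M1) and 2 to 16 (M2) for 14-3-3e KO. It gave 28 to 31 (M1) and 24 to 28 (M2) for 14-3-3e KO against PGRN KO, and 1 to 4 and 0 to 0 for the differences between polarizations of the PGRN KO and 14-3-3e KO effects.

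Replicate numbers did not pair the libraries across all groups: over 45 same-numbered pairs the correlation of deviations was -0.35 to 0.53 (median -0.03). Of 18 libraries, 4 correlated best with their own number. Within 14-3-3e KO, however, M1 and M2 libraries numbered 1, 2 and 3 correlated at 0.53, 0.40 and 0.43, against -0.30 to -0.08 for differently numbered ones. The same-numbered values were 0.35, 0.01 and -0.35 in WT and 0.12, 0.34 and -0.09 in PGRN KO. Pairing within a genotype was not fitted. With the replicate number as a block 22 genes were higher in PGRN KO M1 and 21 in PGRN KO M2 than in WT, 1 was higher and 16 lower in 14-3-3e KO M1, and 9 were lower in 14-3-3e KO M2. The 20.4-fold range of depth limits low genes such as Mcoln3 most.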
